A study of Mus musculus with 6 samples.

Results

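The genes described are 9 mouse carbonic anhydrases, Car1, Car2, Car3, Car5a, Car5b, Car8, Car12, Car13 and Car14, of the 17275 genes in a count table from sorted hepatocytes. They form a family list that was chosen by the measured difference of Car14 between the sorted populations in these same 6 libraries, so the comparison of the populations is given for them as a description, without a test. Of the 9, 8 were analysed in the counts and 7 passed the expression filter of the fit. Car13 did not pass it, and Car12 was not analysed in the counts.

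Both populations came from C57BL/6 mice of the genotype Axin2rtTA;TetO-H2B-GFP, in which the Axin2 promoter drives a doxycycline-dependent activator and cells with an active promoter make a histone-bound green fluorescent protein. All mice received doxycycline for 7 days, and their age is given as postnatal day 63 in one label and as 8 weeks in another. Non-parenchymal cells were removed before sorting. The Axin2-positive group (3 libraries) holds the fluorescent hepatocytes and the Axin2-negative group (3 libraries) the non-fluorescent ones, so the controls carry the same alleles and had the same drug. The replicate numbers 1, 2 and 3 stand for the sequencing index, which each occurs once per group. The labels do not state how many mice each library represents.

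The libraries held 75882611 to 103386648 reads assigned to genes, and levels are given in CPM, counts scaled by TMM to a common total. Axin2, a Wnt target whose promoter drove the sort, had 2.40, 22.6 and 24.2 CPM in Axin2-positive 1, 2 and 3, while Axin2-negative 1, 2 and 3 had 3.04, 3.75 and 5.75 CPM. The library labelled Axin2-positive 1 goes against its label. Over 12343 tested genes, log2 differences between the libraries of a pair spread little in replicate 1 (SD 0.22) and more in replicates 2 (0.78) and 3 (0.62). Ddx3y, on the Y chromosome, had 7164 and 6759 reads in replicate 2 and 0 to 3 in the other 4 libraries. Xist, the RNA of the inactive X chromosome, had 4 and 5 reads in replicate 2 and 32242 to 52151 in the others. Summed over 6 hepatocyte genes, levels were 88368 to 184636 CPM in the Axin2-positive libraries and 81845 to 182991 CPM in the Axin2-negative ones.

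Carbonic anhydrases are zinc enzymes that interconvert carbon dioxide and bicarbonate. Car1, Car2, Car3 and Car13 are cytosolic, Car5a and Car5b are mitochondrial, Car12 and Car14 sit in the plasma membrane with the catalytic domain outside the cell, and Car8 is a related protein without this enzyme activity. In liver, mitochondrial carbonic anhydrase supplies bicarbonate to carbamoyl phosphate synthetase in ureagenesis and to pyruvate carboxylase in gluconeogenesis. Hepatocytes differ in such pathways between the portal and the central end of the lobule, and Wnt signalling is active at the central end.

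In GRCm38 with GENCODE annotation, Car13, Car1, Car3 and Car2 lie in a 259 kb stretch of chromosome 3 (14641727 to 14900770). Car14 is on the same chromosome at 95897768 to 95904691 on the minus strand, 81.0 Mb away. Car8 is on chromosome 4 (8143362 to 8239041), Car5a on chromosome 8 (121916126 to 121944904), Car12 on chromosome 9 (66713686 to 66766845) and Car5b on chromosome X (163976822 to 164027997). The 3′ end of Car14 overlaps that of Aph1a, a gamma-secretase subunit gene on the other strand, and their exons share 445 bases. Car5a exons share 314 bases with the long noncoding RNA gene BC048644 on the opposite strand. No source used here states whether strand entered the counting, so reads of these overlaps cannot be assigned to one gene with certainty.

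RefSeq promoter windows (GRCm38.p6) were matched for 4 of the 9 genes, Car5a, Car5b, Car12 and Car14. Those of Car14, which differed most within replicates 2 and 3, and of Car5a, which hardly differed, are shown as 240 bases upstream of the annotated start, 5′ to 3′ on the gene's strand. The printed stretches end a few bases short of that start. They cover chr3:95904696-95904935 and chr8:121944923-121945162, both on the minus strand, and overlap 0 GENCODE exons. Capitals mark CTTTG or its complement CAAAG, the core of the sequence bound by TCF/LEF factors, which mediate Wnt/β-catenin transcription.
Car14: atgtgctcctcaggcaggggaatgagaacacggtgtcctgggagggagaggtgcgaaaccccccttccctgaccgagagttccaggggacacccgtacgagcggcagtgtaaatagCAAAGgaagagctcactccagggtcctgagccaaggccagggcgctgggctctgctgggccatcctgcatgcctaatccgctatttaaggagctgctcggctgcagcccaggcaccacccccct
Car5a: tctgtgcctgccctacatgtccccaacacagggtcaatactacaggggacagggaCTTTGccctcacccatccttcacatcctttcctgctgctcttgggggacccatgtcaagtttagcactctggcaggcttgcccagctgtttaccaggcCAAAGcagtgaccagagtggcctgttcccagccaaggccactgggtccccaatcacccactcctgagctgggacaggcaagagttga
The core occurred 1 time in the Car14 window and 2 times in the Car5a window, counted on both strands, and 0 times in those of Car5b and Car12. Of 32851 promoter windows of the same length, 47.4% held it. The longer form CTTTGA, counted on both strands and containing the core, occurred 0 times in all 4 windows and in 13.5% of all windows. These letters describe the windows only.

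Levels of different genes were compared per length of transcript. Car3, a cytosolic isozyme of low activity that is abundant in liver, muscle and fat, stood far above the other members, at 1371, 2671 and 1142 CPM per kb in Axin2-positive 1, 2 and 3, against 1369, 2388 and 761 CPM per kb in Axin2-negative 1, 2 and 3. It made up 90.9% to 96.0% of the members' summed level per length in the Axin2-positive libraries and 87.4% to 95.5% in the Axin2-negative ones. In the authors' deposited table it was listed at 1789 FPKM in the Axin2-positive and 1654 FPKM in the Axin2-negative group, rank 28 and rank 33 of 13843 transcripts with a valid test.

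Car5a (41.8 to 52.8 CPM per kb in Axin2-positive and 42.5 to 49.0 in Axin2-negative libraries) and Car8 (34.3 to 50.2 and 25.2 to 34.2) followed. Their ranges overlapped in the Axin2-positive libraries, so these neighbours were not separated there, whereas in each Axin2-negative library Car5a was above Car8. Car14 came next by its median (2.05 to 18.7 CPM per kb in Axin2-positive and 19.2 to 28.8 in Axin2-negative libraries). It was below Car8 in all 6 libraries except Axin2-negative 2, where it was at 28.8 against 25.2 CPM per kb of Car8. The authors' deposited FPKM order these genes otherwise in the Axin2-negative group, with Car14 at 29.9 and Car8 at 18.0 FPKM. Car1 (4.13 to 10.2 and 3.87 to 8.69), Car2 (0.0921 to 3.67 and 0.953 to 3.28) and Car5b (0.476 to 1.26 and 0.876 to 1.41) had lower medians, and the ranges of the last pair overlapped. The order did not hold in every library: Car1 was above Car14 in Axin2-positive 2 (10.2 against 2.05 CPM per kb) and Axin2-positive 3 (8.83 against 2.29), and Car2 was above Car14 in Axin2-positive 3 (3.67).

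Car13, another cytosolic isozyme, had 2, 1 and 1 reads in Axin2-positive 1, 2 and 3 and 3, 0 and 4 reads in Axin2-negative 1, 2 and 3. The 0 reads of Axin2-negative 2 allow up to 0.0395 CPM (3 reads of the unscaled total, counting error only). No difference in Car13 was detectable at this depth. For Car12, a membrane isozyme of secretory epithelia, the authors' deposited table lists 0 FPKM in both groups.

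**Figure D1:**
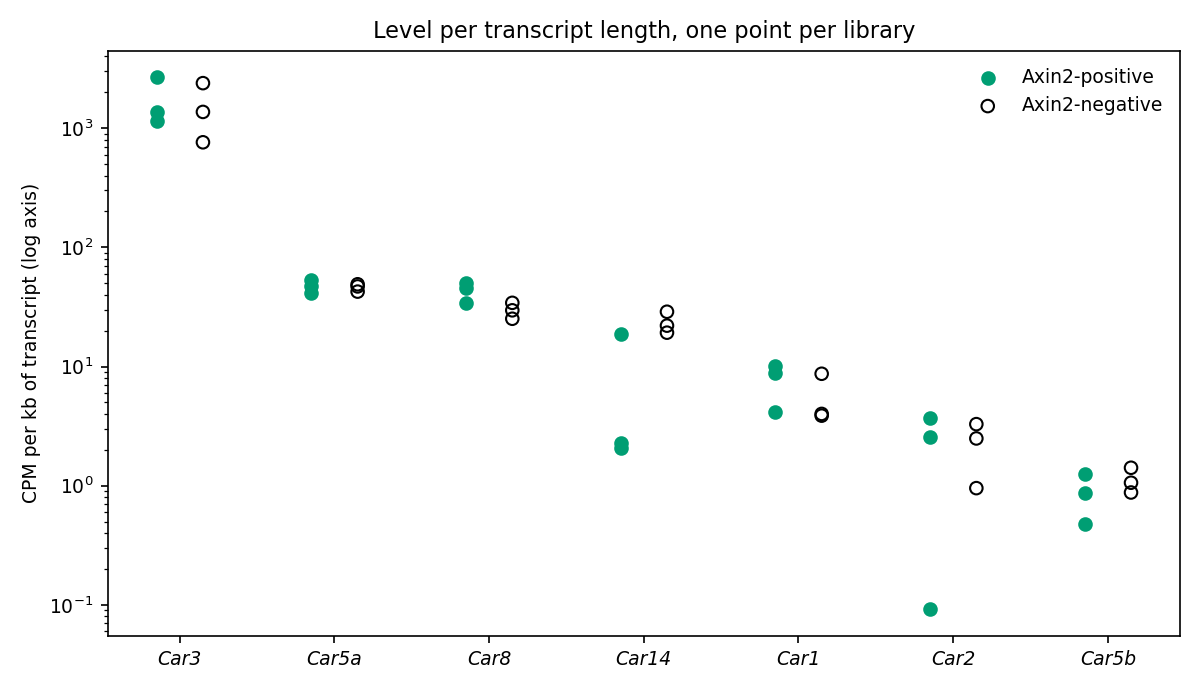
Level per length of transcript (CPM per kb, log axis) of the 7 tested members in each library, Axin2-positive as filled and Axin2-negative as open points, ordered by the median over 6 libraries. Car3 lies at 761 CPM per kb or more in every library, and the Car14 points of Axin2-positive 2 and 3 (2.05 and 2.29) lie apart from the other 4.

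The design sets the Axin2-positive hepatocytes against the Axin2-negative ones. Among the carbonic anhydrases, the membrane isozyme gene Car14 was much lower in Axin2-positive 2 and 3, the gene of the non-catalytic Car8 was higher there, and the mitochondrial Car5a was nearly level. In replicate 1 each of the 7 tested members was nearly level except Car5b. With 3 libraries in each group, 0 of 7 members and 0% of 12343 genes were called by the edgeR quasi-likelihood fit (adjusted p under 0.05), and 279 genes had an unadjusted p under 0.05. DESeq2 and limma-voom called 0 genes too. With the replicate number as a block, edgeR again called 0 of 7 members and 0% of genes, and 1132 genes had an unadjusted p under 0.05. The members' median log2 fold change was 0.03, against -0.00 over all tested genes.

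Car14, found on the hepatocyte plasma membrane in mice, was at 31.9, 3.51 and 3.91 CPM in Axin2-positive 1, 2 and 3, against 32.9, 49.2 and 37.6 CPM in Axin2-negative 1, 2 and 3. All 3 Axin2-positive libraries lay below all 3 Axin2-negative ones, by a narrow margin for Axin2-positive 1 and a wide one for the other two. Within pairs, Axin2-negative exceeded Axin2-positive 1.03-fold in replicate 1, 13.9-fold in replicate 2 and 9.52-fold in replicate 3. Of the 12343 tested genes, 54 had a lower log2 difference than Car14 in replicate 2 and 32 in replicate 3, but 3767 did in replicate 1. The authors' deposited table lists Car14 at 11.05 FPKM in the Axin2-positive and 29.9 FPKM in the Axin2-negative group. In bulk samples such as these, fewer cells that express a gene and less RNA per cell cannot be told apart.

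The edgeR log2 fold change of Car14 over 6 libraries was -1.60 (SE 0.90). Single libraries moved it, to -3.43 when the library labelled Axin2-positive 1 was left out, -1.16 without Axin2-positive 2 and -1.17 without Axin2-positive 3, and -2.42 with the replicate block. Car14 was the only member called without Axin2-positive 1, where 0.0398% of genes were called lower. In the fit of replicates 2 and 3 alone with the replicate block (log2 fold change -3.53, SE 0.16), Car14 was called lower, as were 4.01% of all genes. Tested against a fold of 1.5, it was called lower with 0.888% of all genes. Nothing is read from these calls, since Car14 was chosen from this contrast and replicate 1 was left out because its Axin2-positive library goes against its label.

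The overlapping neighbour Aph1a was at 103, 61.5 and 80.5 CPM in Axin2-positive 1, 2 and 3, against 103, 102 and 118 CPM in Axin2-negative 1, 2 and 3. Its difference within replicates 2 and 3 had the sign of that of Car14 but was smaller, at -0.73 and -0.55 on the log2 scale, against -3.79 and -3.25 for Car14. The reads that each gene takes from the shared bases were not tested.

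For scale, known landmarks of the lobule were read the same way. Cyp2f2, a cytochrome P450 gene of the portal end, differed by -8.44 and -6.03 on the log2 scale within replicates 2 and 3. Cdh1, the E-cadherin gene of the portal end, differed by -7.85 and -6.31. Glul, the glutamine synthetase gene of the central end, differed by 2.85 and 3.14. The 9 listed portal genes ranged from -8.44 to -0.89 in replicate 2 and from -6.31 to -0.74 in replicate 3. Within replicate 1, Cyp2f2, Cdh1 and Glul differed by only -0.03, 0.04 and 0.00. In the fit of replicates 2 and 3, edgeR called 8 of 9 listed genes of the central end higher, beside 3.43% of all genes. It called 9 of 9 of the portal end lower, beside 4.01% of all genes. These lists and Car14 were chosen with earlier results of these data known. Nothing is read from the calls of the lists or from how Car14 compares with them.

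The 5 genes whose log2 CPM over the 6 libraries correlated most with that of Car14 were Dtnb (Pearson r = 0.998), Syt3 (0.996), Abcb8 (0.996), Pde4a (0.995) and Agpat3 (0.995). The 6 libraries share index pairs, and these coefficients carry no p. The size of the difference was not alike. Syt3 was at 4.86, 0.798 and 0.791 CPM in Axin2-positive 1, 2 and 3, against 4.47, 6.27 and 4.39 CPM in Axin2-negative 1, 2 and 3. Agpat3 was at 180, 149 and 149 CPM against 180, 184 and 185 CPM. Among the members, Car5b was nearest to Car14 (r = 0.74) and Car8 farthest (r = -0.94).

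**Figure D2:**
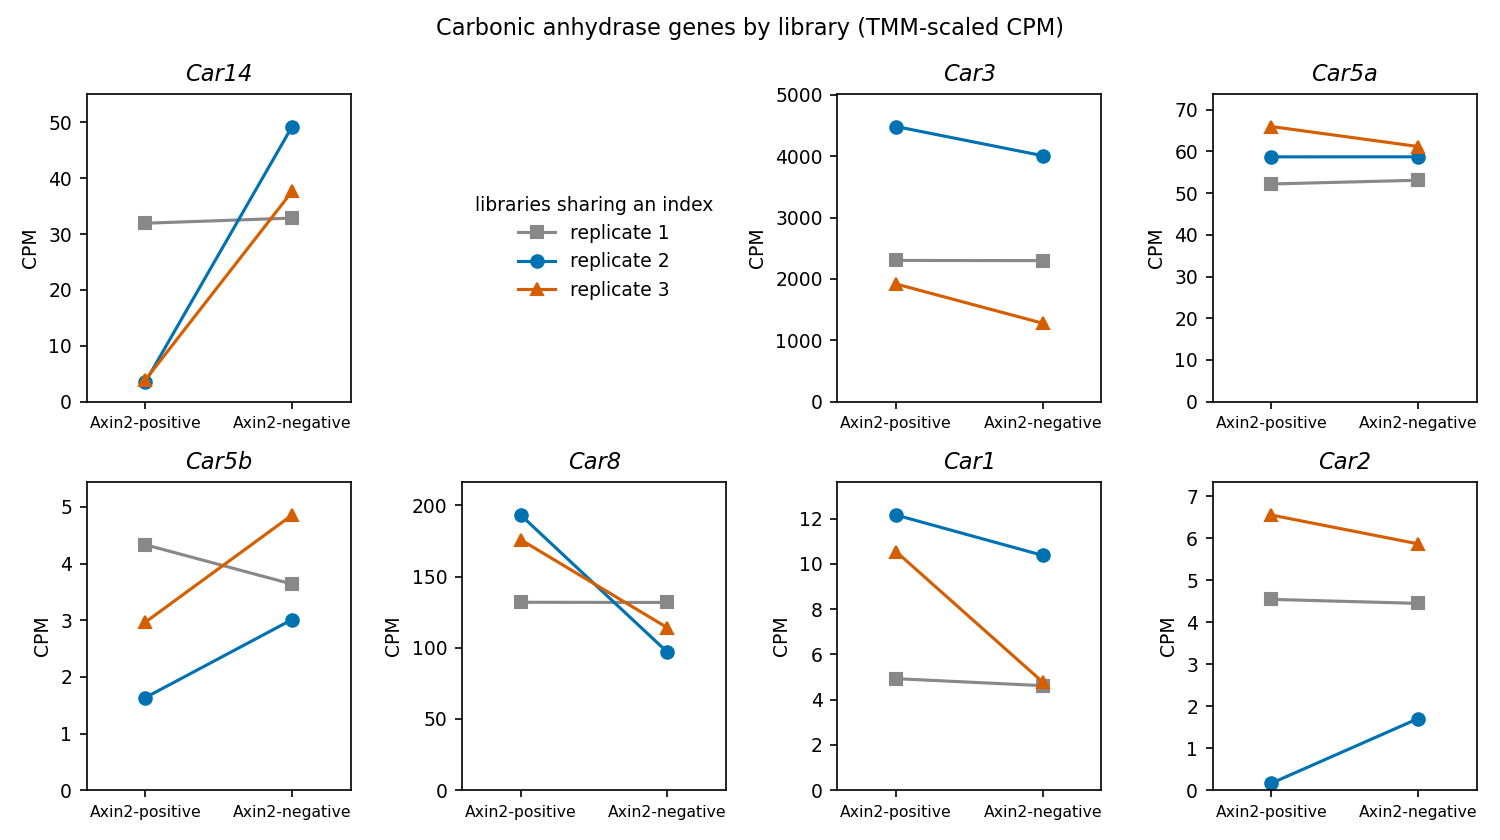
CPM of the 7 tested carbonic anhydrases, with 1 panel per gene and an axis from 0. Each line joins the Axin2-positive library (left) to the Axin2-negative library (right) of the same index. Car14 has 3.51 and 3.91 CPM in Axin2-positive 2 and 3 and 31.9 to 49.2 CPM in the other 4 libraries, while the lines of Car5a are nearly flat.

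Car8, whose protein has lost the carbonic anhydrase activity and binds the inositol trisphosphate receptor, was at 132, 193 and 176 CPM in Axin2-positive 1, 2 and 3, against 132, 96.9 and 114 CPM in Axin2-negative 1, 2 and 3. The ratio of Axin2-positive to Axin2-negative was 1.001, 1.99 and 1.54 in replicates 1, 2 and 3. The groups did not overlap, although in replicate 1 the libraries differed by only 0.0014 on the log2 scale. All 3 Axin2-positive libraries lay above all Axin2-negative ones for 1 of the 7 tested members, Car8, and for 3.44% of all tested genes, and below them for 1 of 7, Car14, and for 3.77%.

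The log2 fold change of Car8 was 0.55 (SE 0.19) over 6 libraries and 0.43 to 0.69 when single libraries were left out. In the fit of replicates 2 and 3 it was 0.81 (SE 0.13). There Car8 was called higher, as were 3.43% of all genes, and it was not called against a fold of 1.5. As for Car14, nothing is read from this call, since the members were chosen from this contrast. The authors' deposited table lists Car8 at 27.8 FPKM in the Axin2-positive and 18.0 FPKM in the Axin2-negative group. Among the members other than Car3, Car8 held 45.6% and 40.0% of the summed level per length in Axin2-positive 2 and 3, against 22.6% and 27.1% in Axin2-negative 2 and 3. For Car14 these shares were 1.87% and 2.003%, against 25.8% and 20.1%. In replicate 1 the shares were nearly level, at 33.4% against 33.1% for Car8 and 18.2% against 18.6% for Car14.

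Car5a, the mitochondrial isozyme of hepatocytes, was at 52.2, 58.7 and 66.0 CPM in Axin2-positive 1, 2 and 3, against 53.1, 58.7 and 61.2 CPM in Axin2-negative 1, 2 and 3. Its groups overlapped, and its log2 fold change was 0.03 (SE 0.12), from -0.06 to 0.11 when single libraries were left out. Its within-pair differences of -0.02, -0.00 and 0.11 on the log2 scale were the smallest among the members in replicate 2 and in replicate 3. The 314 bases shared with an opposite-strand gene apply to these counts.

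Car5b, the mitochondrial isozyme with a wider tissue distribution, was at 4.33, 1.63 and 2.97 CPM in Axin2-positive 1, 2 and 3, against 3.64, 3.01 and 4.86 CPM in Axin2-negative 1, 2 and 3. The Axin2-positive library was the lower one in replicates 2 and 3 (ratios 0.550 and 0.615) and the higher one in replicate 1 (1.19), and the groups overlapped. The log2 fold change was -0.36 (SE 0.39), and it was -0.07 without Axin2-positive 2, -0.16 without Axin2-negative 3 and -0.74 without Axin2-positive 1. Its absolute difference in replicate 1 was the largest of the 7 tested members there.

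**Figure D3:**
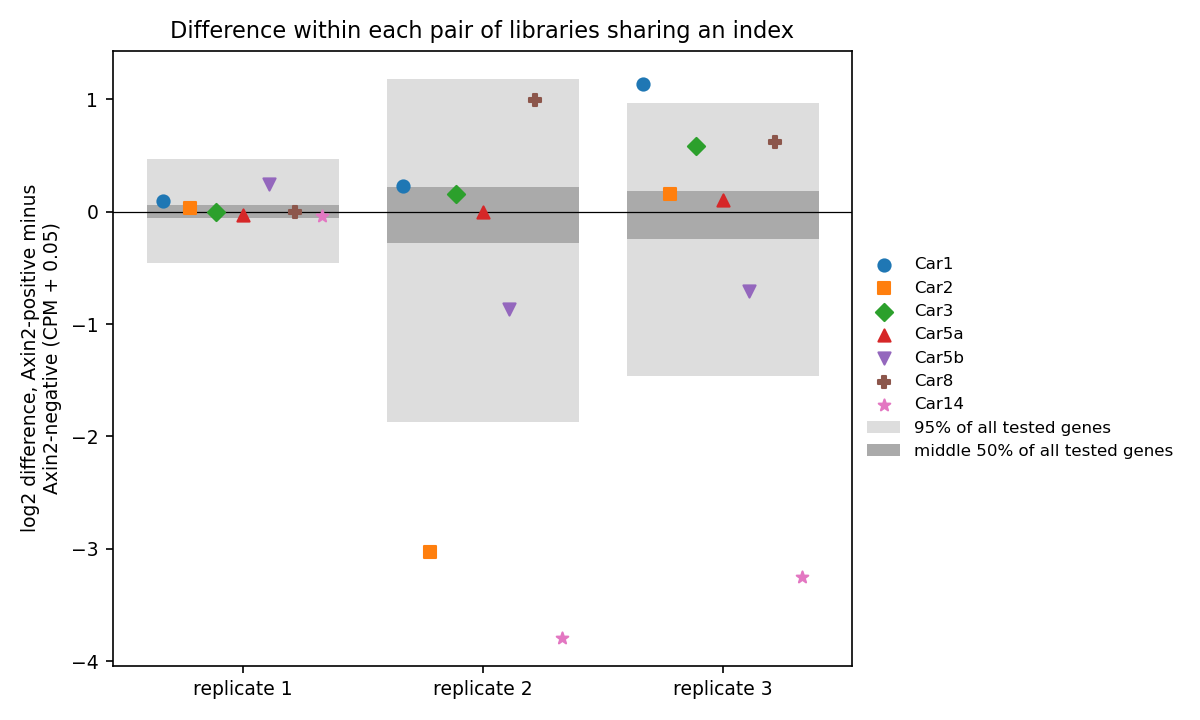
Log2 difference of CPM + 0.05, Axin2-positive minus Axin2-negative, within each index pair for the 7 tested members (symbols), over the middle 50% (dark) and 95% (light) of 12343 tested genes. Car14 lies below the 95% range in replicates 2 and 3 (-3.79 and -3.25) and at -0.04 in replicate 1, while Car2 lies below it in replicate 2 (-3.03) and Car1 above it in replicate 3 (1.13).

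Car3 was at 2302, 4485 and 1918 CPM in Axin2-positive 1, 2 and 3, against 2299, 4009 and 1278 CPM in Axin2-negative 1, 2 and 3. The log2 differences within pairs were 0.00, 0.16 and 0.59 in replicates 1, 2 and 3, but the groups overlapped and the libraries of replicate 2 stood above the other 4. The log2 fold change of 0.20 (SE 0.51) turned to -0.26 without Axin2-positive 2 and to -0.12 without Axin2-negative 3, and was 0.70 without Axin2-negative 2. Adipocyte and skeletal muscle genes (4 of 6 each with counts) are markers of other tissues rich in Car3. The adipocyte genes summed to 1.04 to 1.55 CPM in the Axin2-positive and 0.847 to 1.06 CPM in the Axin2-negative libraries. The skeletal muscle genes summed to 0.456 to 0.617 and 0.387 to 0.787 CPM. Both sums were far below the level of Car3. The part of these tissues in the Car3 values was not tested.

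Car1, the low-activity isozyme of red blood cells, was at 4.93, 12.2 and 10.5 CPM in Axin2-positive 1, 2 and 3, against 4.62, 10.4 and 4.78 CPM in Axin2-negative 1, 2 and 3. The 3 lower values and the 3 higher ones did not follow the groups, and within pairs the ratio of Axin2-positive to Axin2-negative was 1.07, 1.17 and 2.195. In replicate 3 its log2 difference of 1.13 lay above the 95% range of all tested genes, and 236 genes had a higher one. The log2 fold change was 0.48 (SE 0.46), from 0.23 without Axin2-positive 2 to 0.97 without Axin2-negative 2. The erythroid heme synthesis gene Alas2 was at 16.4, 191 and 26.9 CPM in Axin2-positive 1, 2 and 3, against 15.7, 200 and 16.6 CPM in Axin2-negative 1, 2 and 3. The other erythroid markers with counts, Slc4a1 and Hemgn, were at 0 to 0.0116 CPM in the Axin2-positive and 0 to 0.0105 CPM in the Axin2-negative libraries, and 9 of the 12 listed erythroid genes, the globin genes among them, were not analysed here. The part of red blood cell RNA in the Car1 values was not tested beyond this.

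Car2, the high-activity cytosolic isozyme, was at 4.55, 0.165 and 6.56 CPM in Axin2-positive 1, 2 and 3, against 4.45, 1.70 and 5.87 CPM in Axin2-negative 1, 2 and 3. Both libraries of replicate 2 were below the other 4. The value of Axin2-positive 2 rests on 13 reads (exact binomial 95% interval 0.0887 to 0.285 on unscaled CPM), that of Axin2-negative 2 on 137 reads (1.52 to 2.13). Within pairs the log2 difference was 0.03, -3.03 and 0.16, so the large one was found in replicate 2 alone, where 101 genes had a lower one. The log2 fold change was -0.09 (SE 1.11) over 6 libraries, -0.72 with the replicate block, 0.47 without Axin2-positive 2, 0.29 without Axin2-negative 3 and -0.76 without Axin2-positive 3.

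Sums of marker genes of other liver cells were set beside Car2. Summed over 7 endothelial genes, levels were 45.9, 1.72 and 44.3 CPM in Axin2-positive 1, 2 and 3, against 43.1, 4.83 and 62.2 CPM in Axin2-negative 1, 2 and 3. The bile duct genes (7 of 8 with counts) summed to 12.0, 0.203 and 14.6 CPM against 12.3, 3.24 and 7.95 CPM, with the defining duct keratins Krt7 and Krt19 at 0 to 0.0720 CPM in the Axin2-positive and 0 to 0.115 CPM in the Axin2-negative libraries. Stellate genes (6 of 6) summed to 4.86, 0.203 and 4.16 CPM in Axin2-positive 1, 2 and 3, against 4.83, 0.933 and 5.26 CPM in Axin2-negative 1, 2 and 3. Like Car2, the endothelial, duct and stellate sums were lowest in both libraries of replicate 2. The duct sum came largely from single genes. These were Sox9 in Axin2-positive 1 and Axin2-negative 1 (7.80 and 8.28 CPM), and Prom1 in Axin2-positive 3 and Axin2-negative 3 (14.4 and 5.23 CPM). Kupffer genes (8 of 9) did not follow Car2, with sums of 2.73, 0.342 and 3.69 CPM against 2.80, 3.52 and 24.1 CPM. Neutrophil genes (3 of 5) summed to 0 to 0.0253 CPM in Axin2-positive libraries and to 0 CPM in Axin2-negative ones. The part of these cells in the Car2 values was not tested.

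**Figure D4:**
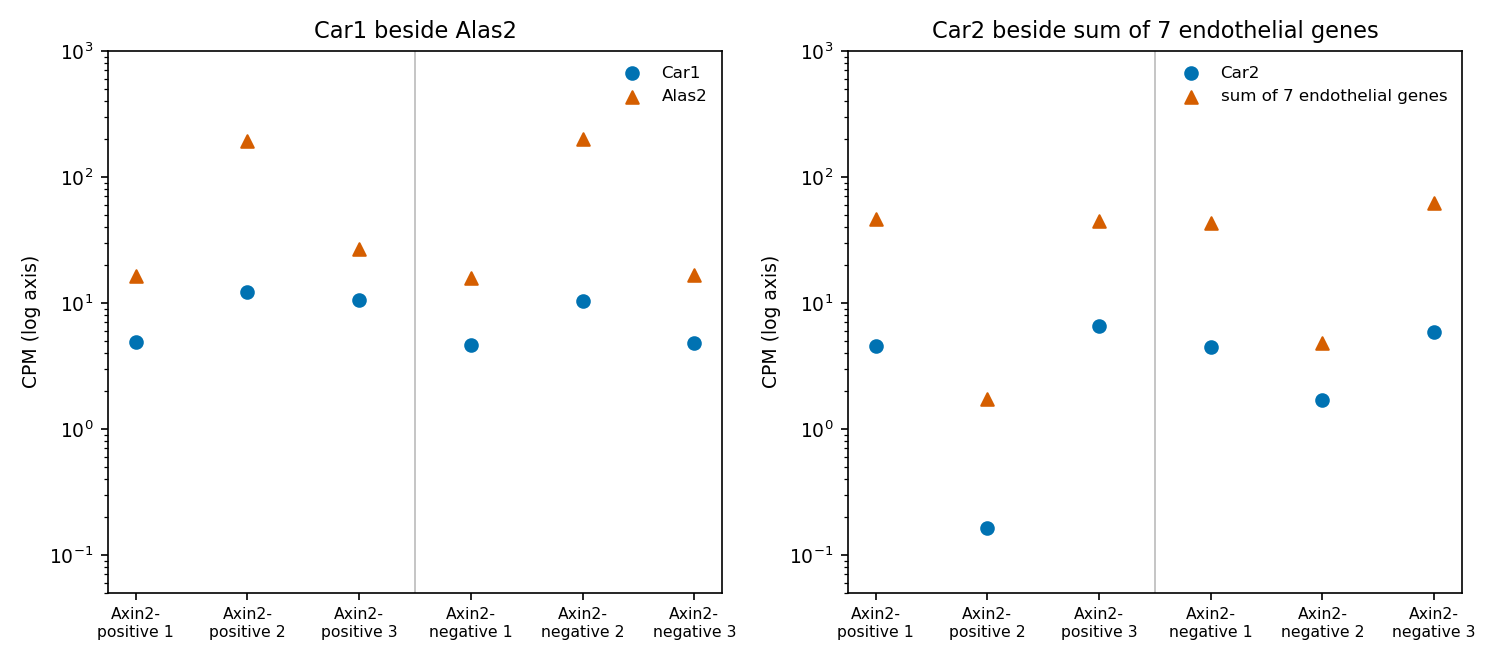
CPM by library (log axis), Axin2-positive libraries left of the line and Axin2-negative libraries right of it. Car1 (4.62 to 12.2 CPM) is shown beside Alas2, which is highest in both libraries of replicate 2 (191 and 200 CPM), and Car2 beside the sum of 7 endothelial genes, both lowest in replicate 2 (Car2 at 0.165 and 1.70 CPM).

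How the members vary between index pairs was tested as the index term of a fit with the group as covariate. Axin2-positive 1 goes against its label, so this term is not free of the contrast from which the list was chosen. Nothing is read from it for Car14. Car3 differed between the pairs (adjusted p = 0.0295 by edgeR), with both libraries of replicate 2 above the other 4. Car3 was the 1 of 7 members called, and 11.1% of all tested genes were called, so the members' share is near that of all genes. The edgeR adjusted p was 0.0945 for Car1, 0.150 for Car2, 0.173 for Car5a, 0.214 for Car5b, 0.381 for Car14 and 0.964 for Car8.

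The call of Car3 rests on few libraries. RLE scaling, limma-voom, DESeq2 and no filter kept it, as did leaving out either library of replicate 1. A threshold of 0.01 did not. Without any single library of replicate 2 or 3, fewer genes were called over all as well, and Car3 was not called. Its edgeR adjusted p was 0.121 without Axin2-positive 2, 0.156 without Axin2-positive 3, 0.117 without Axin2-negative 2 and 0.196 without Axin2-negative 3, and 0.00419 between replicates 2 and 3 alone. DESeq2's likelihood ratio test also called Car1 (adjusted p = 0.000538) and Car5a (0.00801). Single libraries brought further members past the threshold in edgeR, namely Car2 without Axin2-negative 2 (adjusted p = 0.0159) and Car5b (0.0299) and Car14 (0.00165) without Axin2-negative 1. Without Axin2-negative 1, replicate 1 is represented only by the library that goes against its label. The labels give the index alone, and what else differs between the pairs was not tested. In replicate 1 the Axin2-positive library was low in Axin2 (2.40 CPM), and replicate 2 stood apart in its Ddx3y and Xist reads. For replicate 2, the index and these sex-linked reads cannot be told apart. These p-values measure the spread between libraries, and on simulated counts more of the calls of this term were false than its threshold allows.

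The other genes of bicarbonate chemistry were read from the same fits. Of the 7 remaining carbonic anhydrases listed, Car7 (0.532 to 0.947 CPM in Axin2-positive and 0.742 to 0.971 CPM in Axin2-negative libraries) and Car15 (0.442 to 0.535 and 0.293 to 0.535 CPM) were tested over 6 libraries. There edgeR called 0 of 2, with 0 at an unadjusted p under 0.05. The fit of replicates 2 and 3 tested 3, with Car11 added, and called 0. Car11 had a log2 fold change of -2.38 in it (SE 0.79, edgeR adjusted p = 0.132). It rests on few reads, 12, 2 and 7 in Axin2-positive 1, 2 and 3, against 11, 30 and 19 in Axin2-negative 1, 2 and 3. Car4, Car9, Car10 and Car11 had 0 to 30 reads per library and did not pass the filter of the 6 library fit, and Car6 was not analysed in the counts.

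Of 9 listed enzymes that use bicarbonate, 8 were tested, and Pc, the pyruvate carboxylase gene, was not analysed in the counts. Of the 8, edgeR called 0 over 6 libraries and 0 in the fit of replicates 2 and 3. Their median log2 fold change over 6 libraries was -0.12, negative in 7 of 8, against a median of -0.00 over all tested genes. At an unadjusted p under 0.05 these edgeR fits gave 0 and 2 of the 8. For the second fit, the share of all genes at that threshold was not taken, so nothing is read from the 2. DESeq2 and limma-voom called 0 of the 8 over 6 libraries. Cps1, which makes carbamoyl phosphate for the urea cycle, was the most abundant by CPM, at 4249, 4415 and 5067 CPM in Axin2-positive 1, 2 and 3, against 4175, 6221 and 5905 CPM in Axin2-negative 1, 2 and 3. Pccb, a propionyl-CoA carboxylase subunit, was at 142 to 179 CPM in Axin2-positive and 172 to 189 CPM in Axin2-negative libraries. Acacb, the mitochondrial acetyl-CoA carboxylase, was at 73.8 to 211 and 73.6 to 216 CPM. Acacb, Acaca and Cad were called for the index term (edgeR adjusted p = 0.0112, 0.0282 and 0.0146), 3 of 8 beside 11.1% of all genes, and are named for this after their values were seen.

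Of 20 tested bicarbonate and acid-base transporters and partners, 0 were called over 6 libraries by edgeR, DESeq2 or limma-voom. Their median log2 fold change by edgeR was -0.18, negative in 12 of 20, against a median of -0.00 over all tested genes. In that edgeR fit 1 of 20 had an unadjusted p under 0.05, beside 279 of 12343 genes. The fit of replicates 2 and 3 called 1 of 20 higher and 3 of 20 lower, where 3.43% and 4.01% of all genes were called higher and lower. Slc16a7, which encodes monocarboxylate transporter 2, rose (log2 fold change 1.32, edgeR adjusted p = 0.0277), with 44.6, 70.3 and 122 CPM in Axin2-positive 1, 2 and 3, against 42.4, 21.2 and 64.2 CPM in Axin2-negative 1, 2 and 3. Slc9a3r2, a scaffold of the sodium/proton exchanger, fell (-1.17, edgeR adjusted p = 0.0217), with 7.86, 3.59 and 4.67 CPM against 7.90, 9.03 and 9.38 CPM. Slc4a9 (edgeR adjusted p = 0.0431) and the exchanger gene Slc9a7 (0.0394) fell as well, both at under 2 CPM in every library. None of these 4 was called against a fold of 1.5. The most abundant by CPM, Bsg, Slc26a1 and Slc9a3r1, were not called, and 2 transporters, Slc16a1 and Slc26a10, were called for the index term (edgeR adjusted p = 0.0266 and 0.0422), 2 of 20 beside the same 11.1%, named for this after their values were seen.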

How the data were processed

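RNA from sorted hepatocytes was made into libraries with a stranded mRNA kit, per the labels' protocols. The authors deposited raw read counts per gene symbol, and FPKM values per transcript with 1 value per group, per the file headers. Alignment used TopHat2 2.0.11 on mm10, and the FPKM table Cuffdiff 2.2.2, per the submitters' processing notes. How genes were counted, and whether by strand, is not given in the sources used here. Groups come from the labels, and replicate numbers from the index that a pair shares.

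The members and lists were chosen with earlier results of these data known. Counts were fitted over all genes with edgeR 4.0.16 (R 4.3.3) by its quasi-likelihood F test on the group alone, after TMM scaling and the tool's own filter on low counts. P-values were adjusted by Benjamini-Hochberg, and the threshold was 0.05. A second fit tested the index term with the group as covariate. Since separate mice are not stated for the libraries, p-values measure only the spread between libraries, which may be technical. Deviations from the group means correlated at 0.68, 0.82 and 0.75 between libraries sharing an index, all above the threshold of 0.1. Between libraries of different indices they correlated at -0.61 to 0.14, so that threshold alone does not single out the pairs. Pairing is taken from the shared index together with these values. CPM uses TMM-scaled totals, and log2 differences add 0.05 CPM. Intervals and the floor of 3 reads cover counting error only. Level per length divides CPM by the length of the first GENCODE transcript listed for the authors' RefSeq accession. For a gene with several accessions, the longest of these transcripts was taken. Alternatives were DESeq2 1.42.0, limma-voom (limma 3.58.1), RLE scaling, no filter, a threshold of 0.01, the replicate block, 2 pairs, a fold of 1.5 and leaving out each library. Scripts were tested on simulated data. Named genes were all members, landmarks of sort and zone, list members called in the 6 library or 2 pair fit, up to 3 of the most abundant per list, and the 5 genes most correlated with Car14. Landmark and marker lists are given as counts or sums.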

Additional observations from a re-analysis of the deposited data

How the results depend on the processing

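The count of 0 genes called between the populations over 6 libraries was also 0 with RLE scaling, DESeq2, limma-voom, no filter on low counts, a threshold of 0.01 and the replicate block. Leaving out single libraries gave 0 to 6 calls, and the 6 came without the library labelled Axin2-positive 1. Replicates 2 and 3 alone gave 922 calls with the replicate block, and 208 against a fold of 1.5. That fit rests on 1 pair fewer. With all 6 libraries, pairing by the block gave 0 calls and changed no call of a member.

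The index term called 1364 genes, 4729 with DESeq2, 125 at a threshold of 0.01 and 97 to 2679 when single libraries were left out, the lowest without Axin2-positive 3 and the highest without Axin2-negative 1. The cause was not tested. It called 1865 between replicates 2 and 3 alone, a setting chosen after seeing the data.

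Over 11 alternatives, the log2 fold changes of Car1, Car5b, Car8 and Car14 had the same sign throughout. Those of Car2, Car3 and Car5a changed sign in 2 alternatives each, all of them leaving out 1 library. With limma-voom the value was -0.95 for Car2 and -2.29 for Car14. RLE scaling moved the median of all genes by less than 0.01 on the log2 scale. Depth limits Car13 and the value of Car2 in Axin2-positive 2, which rest on few reads.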
